A study of Mus musculus with 36 samples.

Results

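The cytosolic ribosomal protein genes encode the proteins that, with ribosomal RNA, form the small and the large subunit of the ribosome. They were taken here by symbol, as genes named Rps or Rpl with a number, together with Rpsa, Rplp0, Rplp1 and Rplp2, and without pseudogenes whose symbol ends in -ps. Of 85 such genes in the table, 84 had a mean normalized count of at least 1 over 19 libraries, and these 84 of the 20505 genes tested are described here. The gene left out was Rpl6l. The members comprised 34 small-subunit and 50 large-subunit genes. By the biotype in the table, 82 were protein coding, Rps3a3 was a processed pseudogene and Rps4l a transcribed processed pseudogene.

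The 19 libraries came from hypothalamus RNA, 1 mouse each as far as the labels show, in 4 groups. The 5 WT mice carried 2 wild-type alleles of Sim1, a gene for a transcription factor on which the paraventricular nucleus depends, and had no sgRNA. The 4 SH mice were Sim1 +/- with no sgRNA, the 6 PTM mice were Sim1 +/- with an sgRNA for the Sim1 promoter, and the 4 ETM mice were Sim1 +/- with an sgRNA for a Sim1 enhancer. CRISPR activation uses a Cas9 that binds its target without cutting it and brings a transcriptional activator there. The labels do not say which of the mice without an sgRNA carried the Cas9 activator, nor which promoter drove it. Ages ran from 3 to 9 months in WT and PTM, from 4 to 9 in SH and from 3 to 7 in ETM. WT held 1 male, SH 1, PTM 2 and ETM 2. All mice were B6/FVB except WT F_2 and SH F_3, which were B6. Libraries are named by group, sex and number, so that SH F_3 is the SH female numbered 3, aged 4 months.

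Ribosomal proteins are made in near-equal amounts, since each ribosome holds a single copy of most of them. Many of their messengers begin with a C followed by a run of pyrimidines at the 5′ end, the terminal oligopyrimidine (TOP) element, through which mTORC1 adjusts their translation. Their number of processed pseudogenes is large in mammalian genomes, and reads from a gene and a near-identical copy can be confused. RefSeq names at least 1 pseudogene for 64 of the 84 members, most for Rpl31 and Rps12 with 24 each, and the sources used here do not state how reads with several matches were counted. The counts of single members, and in particular of the 9 with at least 12 named pseudogenes (Rpl31, Rps12, Rpl21, Rpl23a, Rpl7a, Rpl19, Rps19, Rps2 and Rpsa), are uncertain to that extent.

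Depth, recovered from the deposited values, ran from 14.1 to 84.8 M reads per library. The highest value, in WT F_4, is the least certain, since 1 read there is worth 0.361 normalized counts and the values are rounded to 1 decimal, and it enters the edgeR and DESeq2 fits. The next highest was 56.5 M. Of the members, 34 had a mean of at least 1000 normalized counts, 59 of at least 100 and 77 of at least 10. The 7 others were Rps3a3, Rpl24, Rpl39l, Rpl3l, Rps29, Rps27 and Rps13, whose values rest on few reads. Sim1 itself, the gene with 1 allele lost in SH, PTM and ETM, had 305 to 547 normalized counts in WT, 121 to 330 in SH, 155 to 431 in PTM and 272 to 353 in ETM. Its log2 fold change for SH against WT was -1.07 ± 0.30 (SE, limma, adjusted p = 0.868). Nkx2-1, a marker of the developing and adult hypothalamus, was between 317 and 1338 in the 18 libraries other than SH F_3 and 702 in SH F_3. Libraries also differed in other cells and RNA. The choroid plexus transcript Ttr reached 11036 in WT F_3, 73295 in WT F_4, 35774 in PTM F_5 and 18742 in PTM M_3, against at most 580 elsewhere. Gm42418, a locus known to hold ribosomal RNA sequence, was highest in WT F_2, SH F_4 and PTM M_3.

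The starts of members that the results below turn on are printed to show the pyrimidine runs. RefSeq promoters of GRCm38.p6 were found for 62 of the 84 members. Each line gives 30 bases, 15 before and 15 from the annotated start, 5′ to 3′ on the strand of the gene, with the longest run of C or T in capitals. Rpl13a, Rpl4 and Rps3 are among the members with the most counts, Rpl7a and Rpl35 have long runs, and Rpl7l1 and Rps4x have short runs. Rps18 and Rpl34 left the common pattern described below, and Rps28 followed Rps18 in part.
Rpl13a: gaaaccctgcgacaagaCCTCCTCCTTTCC
Rpl4: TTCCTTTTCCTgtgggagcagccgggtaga
Rps3: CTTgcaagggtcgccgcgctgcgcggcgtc
Rpl7a: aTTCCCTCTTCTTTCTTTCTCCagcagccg
Rpl35: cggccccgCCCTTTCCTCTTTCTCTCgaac
Rps18: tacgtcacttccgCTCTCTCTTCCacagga
Rps28: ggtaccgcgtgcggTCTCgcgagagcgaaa
Rpl34: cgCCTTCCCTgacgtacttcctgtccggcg
Rpl7l1: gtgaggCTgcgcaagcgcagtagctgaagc
Rps4x: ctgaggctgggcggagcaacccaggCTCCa

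A run of at least 7 C or T lay within these 30 bases in 31 of 62 members, 50%, against 18.5% of 27025 promoters. In the window from 250 bases before to 50 after the start, read on both strands, CCGGAAGT, the core bound by ETS factors such as GABPA, was found in 19.4% of members and 4% of all promoters. AAGATGGC, a core bound by YY1, was found in 8.06% and 2.88%, and TATAAA, the TATA box, in 9.68% and 14.2%. A pyrimidine run and these motifs can overlap, and a match describes the letters only.

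Members with many counts moved together from library to library, and 1 library stood far above the rest. The members took 1.17% of all normalized counts in SH F_3 and between 0.382% and 0.640% in the other 18 libraries. By group the share was 0.484% ± 0.082 in WT (SD, n = 5), 0.659% ± 0.343 in SH (n = 4), 0.509% ± 0.076 in PTM (n = 6) and 0.448% ± 0.050 in ETM (n = 4). Without SH F_3 the SH share was 0.488% ± 0.034 (n = 3). The shares were 0.382% in WT M_1 and 0.453, 0.546, 0.450 and 0.588% in the WT females 1 to 4. They were 0.459, 0.526 and 0.479% in SH F_1, SH F_4 and SH M_1. Apart from SH F_3, the 4 groups overlapped.

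**Figure D1:**
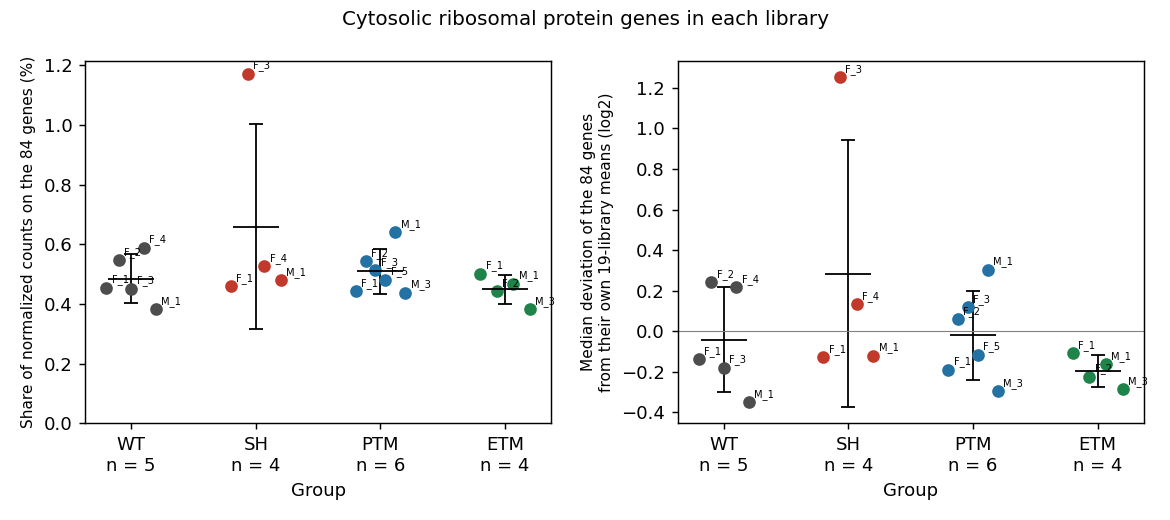
Each point is 1 library, and the bar with whiskers is the group mean with 1 SD. The left panel gives the share of all normalized counts on the 84 genes in percent, from 0, and the right panel the median over the genes of their deviation from their own mean of 19 libraries on the log2 scale; SH F_3 lies at 1.17% and 1.25, and the 4 groups overlap otherwise.

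On the log2(normalized count + 1) scale, the median deviation of the members from their own mean of 19 libraries was 1.25 in SH F_3. It ran from -0.35 in WT M_1 to 0.30 in PTM M_1 in the other 18. In SH F_3, 83 of 84 members were above their own mean and 71 were higher than in each of the other 18 libraries, where 20.3% of all genes tested were highest in that library. WT F_2, the other B6 mouse, had the second-largest number of members above their own mean, 72, and a median deviation of 0.24. PTM M_1 with 67 members above and WT F_4 with 65 were next, both B6/FVB.

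The size of the difference varied among members in SH F_3. The ratio of the normalized count in SH F_3 to the median of the other 18 was computed for the 77 members with a mean of at least 10. Its median was 2.63, with the middle of the values between 2.03 and 3.16 (quartiles), against a median of 0.994 for 16153 other genes. The median ratio was 2.80 for 30 small-subunit members and 2.20 for 47 large-subunit members. The extremes were Rps18 at 10.1, Rps28 at 5.20 and Rpl35 at 4.96 on the high side, and Rps4l at 1.096, Rpl7l1 at 1.24 and Rpl21 at 1.40 on the low side. Rpl7l1 is a paralogue of the large-subunit gene Rpl7, and Rps4l a copy of the X-linked Rps4x. The median ratio was 2.74 for 29 members with a run of at least 7 pyrimidines in the 30 bases around the start. It was 2.45 for 28 with a shorter run, over ranges from 1.41 to 10.1 and from 1.24 to 5.20 in the same order. Such a run can lie before the start, as in Rpl4, so this does not sort members by the TOP element.

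The 3 members with the highest mean, Rpl4, Rpl8 and Rpl13a of the large subunit, show the pattern with the least counting error. Rpl13a, also known in human monocytes as part of an interferon-induced complex that silences translation, had 10312, 16408, 10240, 16353 and 9244 normalized counts in the WT females 1 to 4 and the WT male, in that order. It had 10123, 39765, 12833 and 11647 in SH F_1, SH F_3, SH F_4 and SH M_1, 9978 to 15219 in PTM with a median of 11645, and 12838, 11673, 10926 and 8337 in ETM. SH F_3 was thus the single library above 16408. Rpl8, which lies near the peptidyl transferase centre, had 28447 in SH F_3 and 10599 to 18568 elsewhere, and Rpl4 28575 against 15531 to 22978, where the highest other library was PTM M_1 in both cases. The ratios of SH F_3 to the median of the others were 3.43 for Rpl13a, 2.20 for Rpl8 and 1.53 for Rpl4.

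Small-subunit members gave the same picture. Rps3, which lines the entry of the messenger channel, had 10531, 16226, 10654, 15287 and 9096 normalized counts in WT, 10380, 31907, 13146 and 11812 in SH, 10111 to 15646 in PTM with a median of 11811, and 12507, 11142, 11918 and 8922 in ETM. Rps19, the gene most often mutated in Diamond-Blackfan anaemia in humans, had 6853 in SH F_3 and 1237 to 2380 elsewhere, with the caution that RefSeq names 13 pseudogenes of it. Rps6, whose protein is phosphorylated downstream of mTORC1, had 158 in SH F_3 and 59.3 to 132 elsewhere, a ratio of 1.798.

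**Figure D2:**
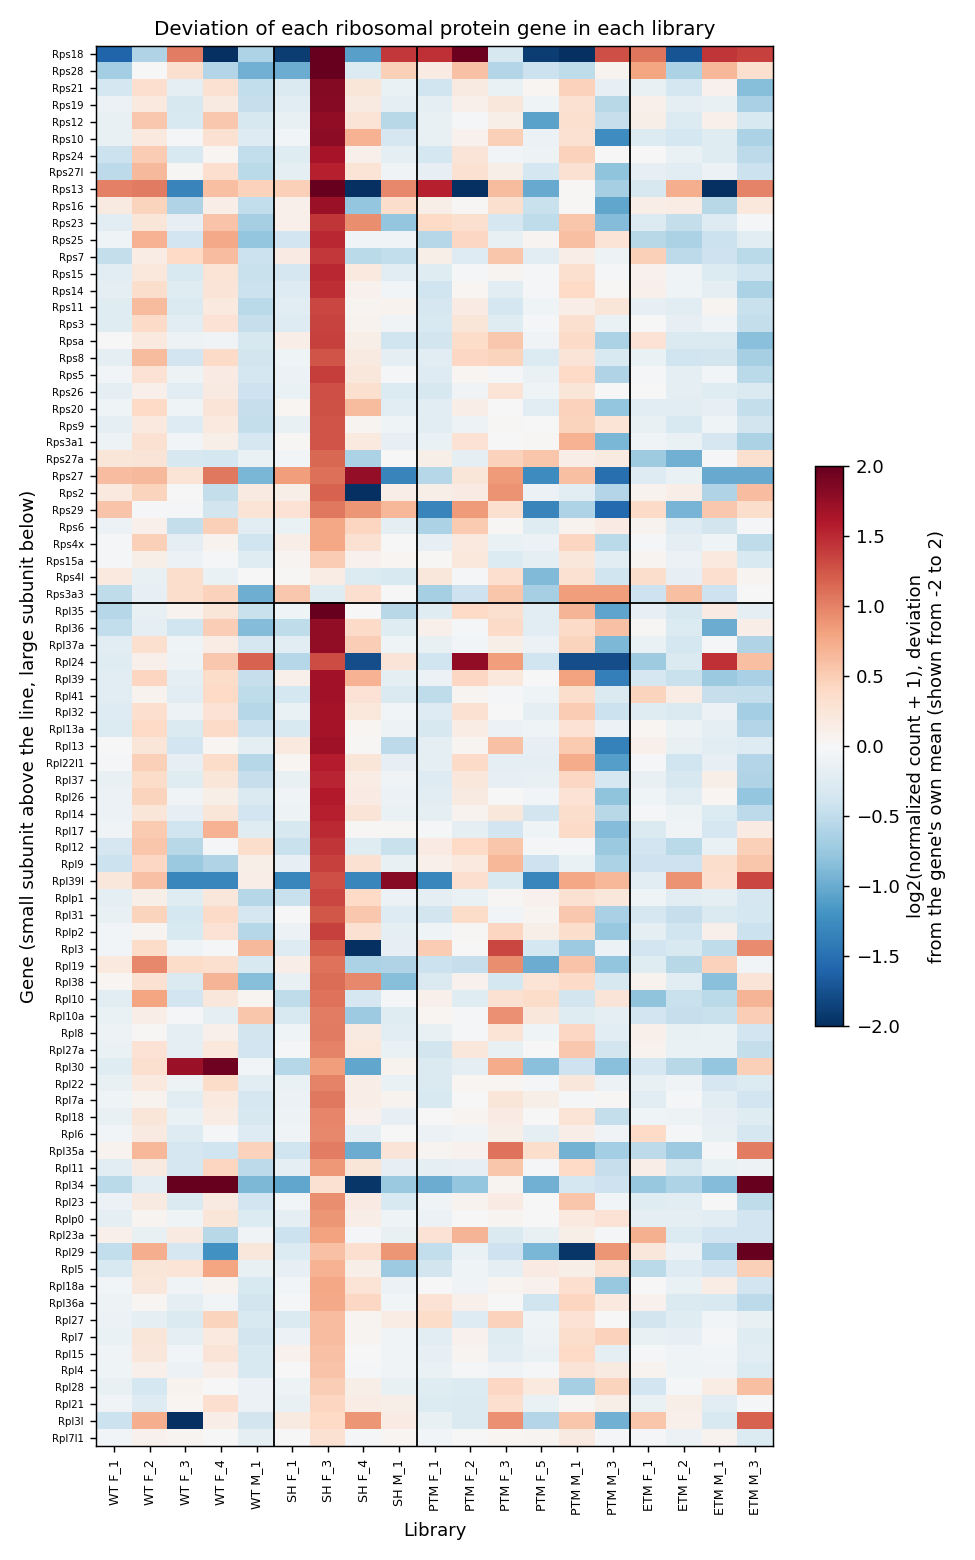
Each row is 1 of 83 of the 84 genes, small subunit above the line and large subunit below, ordered by the ratio of SH F_3 to the median of the other 18 libraries, and each column 1 library, with lines between groups. Colour gives the deviation of log2(normalized count + 1) from the gene's own mean, shown from -2 to 2; the column SH F_3 is red in nearly all rows, while Rps18, Rpl34 and genes with few counts such as Rps13 and Rpl24 have patterns of their own.

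The common movement was also present without SH F_3. Over 34 members with a mean of at least 1000, the SD across 19 libraries had a median of 0.42 (log2), and 0.19 once the median deviation of all members in each library was subtracted. Without SH F_3 the medians were 0.27 and 0.15. For 6462 other genes with a mean of at least 1000 the median SD was 0.20 over 19 libraries and 0.17 without SH F_3. The common movement was less clear in members with fewer counts. For 25 members with a mean of 100 to 1000 the median SD over 19 libraries was 0.47, and 0.34 after the subtraction. For 25 with a mean below 100 it was 0.60, and 0.50 after the subtraction. Among the well-counted members, Rpl18 followed the common level most closely, with an SD of 0.10 after that subtraction, and Rpl7l1 moved least in all, with an SD of 0.13 over 19 libraries.

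The question whether members differ between groups was asked with 6 comparisons. In limma with all 19 libraries, sex as a covariate and Benjamini-Hochberg adjustment over 20505 genes, 0 of 84 members passed an adjusted p of 0.05 in each of them, as did 0% of all genes (0 of 20505). The smallest adjusted p of a member was 0.868 for SH against WT, 0.934 for PTM against SH and 0.678 for ETM against SH, and at least 0.999 in the 3 others. With edgeR and with DESeq2 on the recovered reads 0 members passed in each comparison as well. edgeR called 0 of all genes in each, and DESeq2 called 7 (0.0342%) for SH against WT, 3 (0.0147%) for PTM against SH, 14 (0.0774%) for ETM against SH and 0 in the others. At an unadjusted p under 0.05, limma, edgeR and DESeq2 gave 3, 17 and 26 members for SH against WT, 3, 8 and 9 for PTM against SH, and 11, 24 and 32 for ETM against SH. They gave 0, 1 and 1 for ETM against PTM, 1, 2 and 2 for PTM against WT, and 0, 1 and 1 for ETM against WT. In limma the share of all genes tested under that p was 3.75, 4.08, 6.67, 2.44, 2.11 and 1.26% in the same order. In edgeR it was 4.55, 4.21, 7.09, 2.23, 2.08 and 1.39%, and in DESeq2 4.73, 4.32, 7.53, 2.38, 2.18 and 1.44%. These counts include SH F_3, and edgeR and DESeq2 were not run without it. In limma without SH F_3 the members under that unadjusted p numbered 3, 1, 0, 4, 1 and 1 in the same order. Of all 20505 genes, 589, 671, 688, 743, 534 and 347 were then under it. For SH against WT, 2 of the members were higher in SH and 1 lower with SH F_3, and 0 higher and 3 lower without it.

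Members leaned 1 way in the comparisons that include SH, and this lean was smaller without SH F_3. For SH against WT, 72 members had a fold change above 0, with a median log2 fold change of 0.34, where 48.8% of all genes were above 0 and the median of all genes was -0.01. Without SH F_3, 55 members were above 0, against 49.9% of all genes, and the median was 0.04. For PTM against SH, 74 members were below 0 with a median of -0.26, against 49.9% of all genes. Without SH F_3, 35 members were below 0, against 50.4% of all genes, and the median was 0.04. For ETM against SH, 76 were below 0 with a median of -0.39, against 49.7% of all genes. Without SH F_3, 59 were below 0, against 49.4% of all genes, and the median was -0.10. These 3 comparisons share the 4 SH libraries. Small-subunit members had medians of 0.37, -0.32 and -0.49 in the 3 comparisons and large-subunit members 0.29, -0.19 and -0.32.

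**Figure D3:**
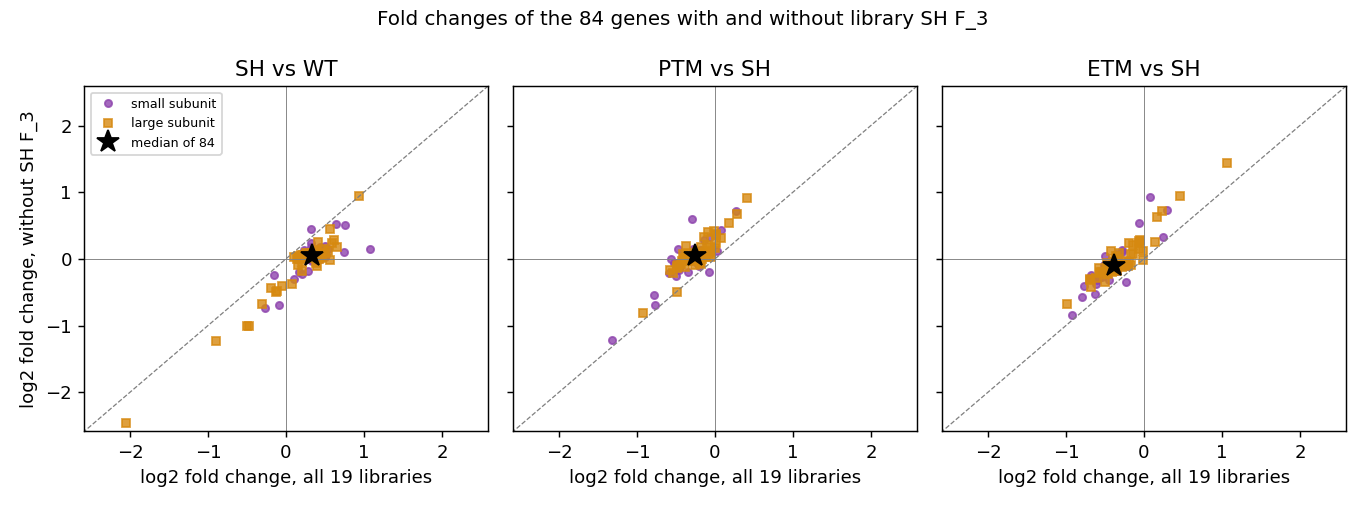
Each point is 1 of the 84 genes (circles small subunit, squares large subunit, star the median), with the log2 fold change from all 19 libraries on the horizontal axis and that without SH F_3 on the vertical axis, for the 3 comparisons with SH. The medians move from 0.34 to 0.04, from -0.26 to 0.04 and from -0.39 to -0.10, and the dashed line marks equal values.

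Medians were nearer to 0 in the comparisons without SH. For ETM against PTM, 61 members were below 0, with a median of -0.12, against 48.8% of all genes. For ETM against WT, 60 were below 0, with a median of -0.09, against 50.4% of all genes, and for PTM against WT 54 were above 0, with a median of 0.05, against 47.8%. Without PTM M_1, the PTM library with the highest share, the medians were 0.00 for ETM against PTM and -0.03 for PTM against WT. Without WT F_2 they were 0.12 for PTM against WT and -0.03 for ETM against WT. In the authors' deposited table, 0 members had a false discovery rate under 0.05 in each of 3 comparisons, of 19 genes so called for the Sim1 genotype, 7 for the enhancer sgRNA and 9 for the promoter sgRNA. The members with a mean below 10 normalized counts have no false discovery rate there, so the 0 does not cover them. The median log2 fold change of the members in the authors' deposited table was 0.20 for genotype, -0.12 for the enhancer sgRNA and -0.01 for the promoter sgRNA.

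The members with the smallest p in ETM against SH were Rpl39, Rpl36a, Rpl31 and Rps20, and none passed on adjustment. Rpl39, an X-linked gene for a small protein of the exit tunnel, had 290, 451, 296, 432 and 243 normalized counts in WT, 359, 1073, 545 and 296 in SH, 130 to 590 in PTM with a median of 360, and 266, 247, 201 and 214 in ETM. All 4 ETM libraries lay below all 4 SH libraries. The log2 fold change was -0.98 ± 0.36 (SE, limma, adjusted p = 0.678), and -0.67 ± 0.33 without SH F_3 (adjusted p = 0.991). Rpl31 and Rps4x were the other members whose ETM and SH libraries did not overlap, 3 in all, where 2.18% of all genes tested lay lower in ETM without overlap and 1.76% higher. For SH against WT and PTM against SH no member was so placed, against 0.522 and 0.0927% of all genes higher and 0.39 and 0.278% lower. Rpl31, a protein at the rim of the exit tunnel, had 295, 698, 427 and 245 in SH and 233, 213, 239 and 229 in ETM, a log2 fold change of -0.68 ± 0.28 (limma, adjusted p = 0.678). Rps4x, the X-linked gene for the small-subunit protein S4, had 2028, 3167, 2288 and 1833 in SH and 1793, 1629, 1732 and 1305 in ETM, a log2 fold change of -0.45 ± 0.20 (limma, adjusted p = 0.678). SH F_3 was the highest SH library for Rpl31 and Rps4x. Without it the SH mean went from 416 to 322 for Rpl31, against 228 in ETM, and from 2329 to 2050 for Rps4x, against 1614 in ETM.

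X-linked Rpl36a and autosomal Rps20 overlapped between the groups. Rpl36a had 190, 331, 259 and 186 in SH and 207, 159, 157 and 135 in ETM, so that ETM F_1 overlapped SH. Its log2 fold change was -0.50 ± 0.21 for ETM against SH and 0.42 ± 0.19 for SH against WT (limma, adjusted p = 0.678 and 0.868). Rps20, on the head of the small subunit, had 1377, 3241, 2082 and 1149 in SH, 1150, 1154, 1204 and 972 in ETM, and 787 to 1846 in PTM with a median of 1250. Rps20 had a log2 fold change of -0.61 ± 0.26 for ETM against SH and -0.50 ± 0.23 for PTM against SH (limma, adjusted p = 0.678 and 0.934). SH F_3 was the highest SH library for Rpl36a and Rps20 too. Without it the SH mean went from 242 to 212 for Rpl36a, against 164 in ETM. That of Rps20 went from 1962 to 1536, against 1120 in ETM and 1293 in PTM.

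For SH against WT, Rpl34 had the smallest p, with a log2 fold change of -2.06 ± 0.95 (limma, adjusted p = 0.868). It was 1 of 12 members below 0, where 72 were above 0. Rpl7a, host gene of several small nucleolar RNAs, had 387, 434, 355, 473 and 327 in WT and 381, 855, 453 and 433 in SH. Rpl7a's log2 fold change of 0.37 ± 0.18 became 0.12 ± 0.14 without SH F_3 (limma, adjusted p = 0.868 and 1.00).

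For PTM against SH, Rps29, a small zinc-binding protein of the small subunit, had the smallest p, on counts of 6.9, 12.4, 10.9 and 9.2 in SH and 1.2 to 10.7 in PTM. Its log2 fold change was -1.32 ± 0.47 and -1.21 ± 0.52 without SH F_3 (limma, adjusted p = 0.934 and 1.00), so this member did not rest on that library. Rpl37a, on the large subunit, had 497, 2000, 824 and 548 in SH and 311 to 799 in PTM, with a log2 fold change of -0.57 ± 0.29 that became -0.17 ± 0.22 without SH F_3 (limma, adjusted p = 0.934 and 1.00).

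For ETM against PTM, Rplp0, the stalk protein often used as a reference gene in PCR, had 2313, 2327, 2272 and 2019 in ETM and 2405 to 3198 in PTM. The groups did not overlap, which held for 1 member, while 0.341% of all genes tested were so placed. Its log2 fold change was -0.29 ± 0.16, and -0.30 ± 0.11 without SH F_3 (limma, adjusted p = 0.999 and 0.975). Rpl36a, Rps27a, which is made as a fusion with ubiquitin, and Rpl23, one of the proteins that bind Mdm2, had log2 fold changes of -0.34 ± 0.19, -0.59 ± 0.32 and -0.34 ± 0.19 (limma, adjusted p = 0.999 each).

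For ETM against WT the smallest p values belonged to Rpl30, Rpl3l, Rps28 and Rps25, with log2 fold changes of -0.97 ± 0.47, 0.92 ± 0.58, 0.68 ± 0.49 and -0.48 ± 0.38. For PTM against WT they belonged to Rpl30, Rpl34, Rps29 and Rpl36, with -1.01 ± 0.42, -1.78 ± 0.86, -0.68 ± 0.45 and 0.52 ± 0.34. All 8 had a limma adjusted p that rounded to 1.00. Rpl3l is a paralogue of Rpl3 used in striated muscle, and its counts here did not exceed 13.6.

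The X-linked members and sex were examined because Rps4x has a Y-linked copy in humans but not in mice. Between 6 males and 13 females, 0 members passed in limma, edgeR and DESeq2, where 8, 7 and 12 genes in all passed, and 4, 3 and 3 members had an unadjusted p under 0.05, as did 3.14, 2.75 and 2.98% of all genes. The share of all genes tested that passed was 0.039% in limma, 0.0341% in edgeR and 0.0586% in DESeq2. Members as a whole leaned lower in males in limma. For males against females 69 of 84 were below 0, with a median log2 fold change of -0.17, where 10372 of 20505 genes were above 0. Without SH F_3, a female, 60 members were below 0, with a median of -0.09, where 10319 of 20505 genes were above 0. Among the X-linked members, the log2 fold change of males against females was -0.23 ± 0.14 for Rps4x, 0.08 ± 0.26 for Rpl10, -0.11 ± 0.15 for Rpl36a and -0.52 ± 0.25 for Rpl39 (limma, each adjusted p at least 0.999). Of all members, the smallest p values by sex were those of Rps27, Rpl39l and Rpsa, with -1.11 ± 0.39, 1.15 ± 0.47 and -0.48 ± 0.21. Rps27 and Rpl39l had at most 20.1 and 7.7 normalized counts in any library.

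Paralogue pairs differed in how far they followed the common level. Rpl22 and Rpl22l1, whose transcript the Rpl22 protein is known to hold down, had 4848 and 3466 in SH F_3, against 1941 to 3140 and 543 to 1961 elsewhere, ratios of 2.14 and 3.30. Rps27l, a paralogue of Rps27 that p53 induces in human cells, had 672 in SH F_3 and 131 to 358 elsewhere, a ratio of 3.26, while Rps27 had 12.4 against 1.2 to 20.1. Rpl7 had 5183 against 2607 to 4651, a ratio of 1.66, while its paralogue Rpl7l1 had 2044 against 1370 to 1861, a ratio of 1.24. Rps4x and Rps4l had ratios of 1.797 and 1.096, and Rps4l was within the range of the other libraries, 591 against 288 to 680. Rpl3 had 133 in SH F_3 and 146 in PTM F_3, so SH F_3 was not its highest library. Rpl39 had a ratio of 3.54, and Rpl10, an X-linked gene of the large-subunit core, one of 2.31.

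Rps18, Rpl34 and Rps13 had the largest SD once the common level was subtracted, 1.60, 1.69 and 1.30 (log2). Rps13 had at most 19.9 normalized counts and is not described further. Rps18, a small-subunit protein at the head of the subunit, had 170, 220, 228, 325, 204, 175, 224, 214 and 604 normalized counts in WT F_3, SH M_1, PTM F_1, PTM F_2, PTM M_3, ETM F_1, ETM M_1, ETM M_3 and SH F_3. It had 18.4 to 66.1 in the other 10 libraries. The libraries on the high side were 1 of 5 in WT, 2 of 4 in SH, 3 of 6 in PTM and 3 of 4 in ETM, so both levels were present in every group. Of the B6 mice, SH F_3 was on the high side and WT F_2, with 53.9, on the low side.

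Rps28, which lies 0.133 Mb from Rps18 on chromosome 17, followed it in part. It had 85.5, 138, 173, 91.4 and 70.1 in WT, 68.5, 652, 113 and 193 in SH, 91.6 to 207 in PTM, and 239, 88.2, 218 and 172 in ETM. In GRCm38, Rps18 lies at chr17:33951999-33956001 and Rps28 at chr17:33819027-33824562, both on the minus strand. Of 15116 genes ranked by the size of their correlation with Rps18 over the 19 libraries, 9 of the first 10 lay on chromosome 17 within 3 Mb of it, a window that holds 1.08% of the ranked genes. They were Rps28, Ring1, H2-T22, Gm10499, Gm10501, Gm18733, H2-Eb1, Gm8909 and Gpank1, with Pearson's r from -0.80 to 0.85, as a description over 19 libraries. H2-T22 and H2-Eb1 belong to the major histocompatibility complex. These neighbours were looked up after the values of Rps18 had been seen.

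Rpl34, a large-subunit protein, had 887 in WT F_3, 1361 in WT F_4 and 691 in ETM M_3, and 19.3 to 95.7 in the other 16 libraries. SH F_3, at 95.7, was the highest of these 16. No library lay between 95.7 and 691. Rpl30, on chromosome 15, was the gene most like it, with a Pearson's r of 0.86 over 19 libraries. It had 391.9 in WT F_3 and 458 in WT F_4, 164 in ETM M_3 and 56.9 to 211 elsewhere. None of the 10 genes most like Rpl34 lay on its chromosome 3. Ttr was high in WT F_3 and WT F_4, as given above, and was 146 in ETM M_3. In PTM F_5 and PTM M_3, where Ttr was also high, Rpl34 had 39.5 and 57.9. The part of other cell types in the Rpl34 values was not tested. Both WT F_3 and WT F_4 enter the comparisons with WT. The log2 fold change of Rpl34 for SH against WT was -1.48 without WT F_3 and -1.32 without WT F_4, and for PTM against WT -1.21 and -1.06. That of Rpl30 was -0.78 and -0.72 for PTM against WT, and -0.75 and -0.70 for ETM against WT. In the authors' deposited table Rpl34 had a log2 fold change of -2.99 with a false discovery rate of 0.176 for genotype, and Rpl30 -1.26 with 0.762.

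**Figure D4:**
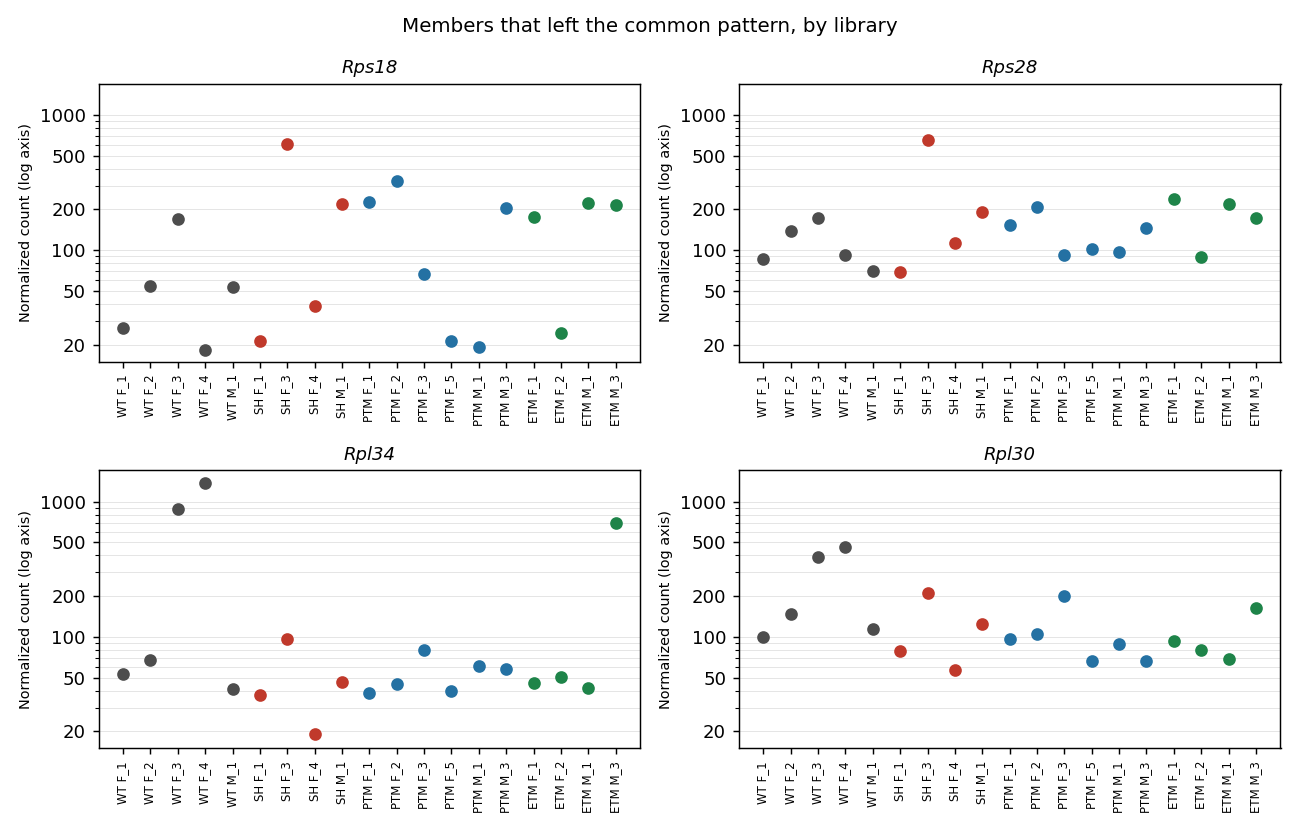
Normalized count (log axis) of Rps18, Rps28, Rpl34 and Rpl30 in each of 19 libraries, coloured by group. Rps18 has 9 libraries between 170 and 604 and 10 between 18.4 and 66.1, and Rpl34 has 3 between 691 and 1361 and 16 at or below 95.7.

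Other genes of the ribosome and of its making were taken from lists to see which moved in SH F_3 as the members did. The 5 other cytosolic ribosome genes, among them Fau and Rack1, had a mean deviation of 1.04 (log2) in SH F_3, against -0.58 to 0.37 in the other 18 libraries. Rack1, a scaffold on the head of the small subunit, had 16129 normalized counts against 5426 to 9207. Small nucleolar RNA host genes, 5 measured, had 1.15 against -0.41 to 0.42. Gas5, one of them and itself a TOP transcript, had 9355 against 3002 to 5330.

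Genes of the respiratory chain encoded in the nucleus stood apart as far as the members did, with a mean deviation of 1.24 in SH F_3 against -0.35 to 0.27, and 26 of 27 were highest there. The 76 mitochondrial ribosomal protein genes had 0.59 against -0.25 to 0.19, with 56 highest there. Translation elongation and initiation factors with TOP messengers, 18 genes, had 0.41 against -0.26 to 0.23. Eef1a1, the elongation factor that carries aminoacyl-tRNA, had 26935 against 16238 to 24073.

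Genes that make ribosomes lay within the range of the other libraries by their mean deviation. The 27 ribosome biogenesis genes had a mean deviation of -0.09 in SH F_3, within -0.17 to 0.15 of the others, the 11 genes of RNA polymerase I 0.03 within -0.10 to 0.11, and the 14 genes of the mTORC1 pathway -0.15 within -0.16 to 0.18. The summed normalized counts of the mTORC1 genes were nonetheless lowest in SH F_3, at 22897 against 24504 to 29972. The 7 genes of ribosome stress and p53 had 0.06 within -0.28 to 0.26. In limma 0 genes of each of these lists passed an adjusted p of 0.05 in any of the 6 comparisons. For SH against WT, 24 of 27 respiratory chain genes and 74 of 76 mitochondrial ribosomal protein genes had a fold change above 0, with medians of 0.32 and 0.21, and without SH F_3 18 and 64, with medians of 0.03 and 0.05.

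**Figure D5:**
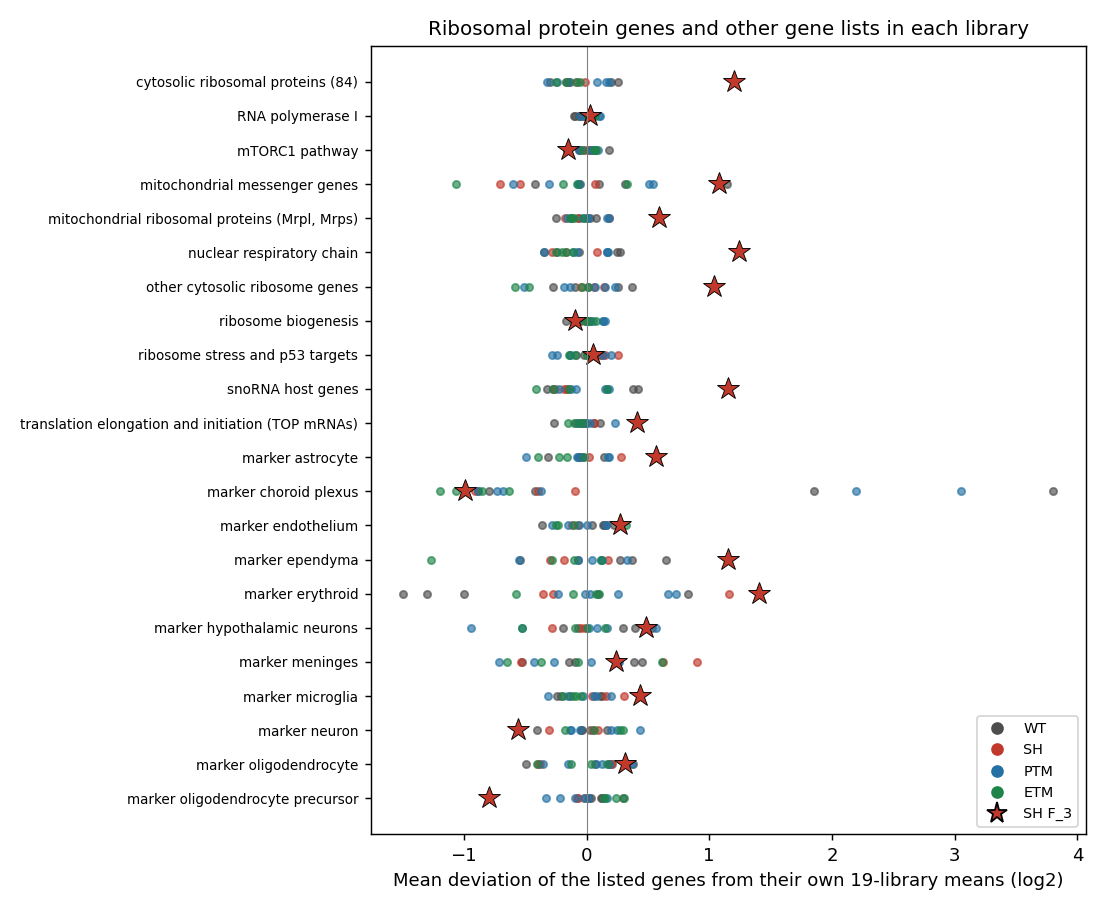
Mean deviation of the genes of each list from their own means of 19 libraries (log2), with 1 circle per library coloured by group and a star for SH F_3. The star is above the circles for the cytosolic ribosomal proteins, the other cytosolic ribosome genes, the respiratory chain, the snoRNA hosts and the mitochondrial ribosomal proteins. It is also above them for the translation factors with TOP messengers and for the ependyma, erythroid and microglia markers. For the neuron and oligodendrocyte precursor markers it is below them. It is within them for ribosome biogenesis, RNA polymerase I and the mTORC1 pathway.

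Markers of cells also moved in SH F_3. The 8 neuron markers had a mean deviation of -0.56, against -0.40 to 0.44 elsewhere, and 0 of 8 were above their own mean. The 4 markers of oligodendrocyte precursors had -0.79 against -0.33 to 0.30. The 4 ependyma markers had 1.15 against -1.27 to 0.65, the 5 erythroid markers 1.41 against -1.49 to 1.1599, and the 8 microglia markers 0.44 against -0.31 to 0.31. Above their own mean in SH F_3 were 0 of 4 oligodendrocyte precursor, 4 of 4 ependyma, 4 of 5 erythroid and 6 of 8 microglia markers. Summed normalized counts of the ependyma markers were 5557 in SH F_3 and 1118 to 3907 elsewhere, and those of the neuron markers 100332 and 116118 to 192471. Astrocytes had 0.57, within the -0.49 to 0.58 of the others, with Gfap at 41090 against 7879 to 26864. Endothelium, oligodendrocyte, meningeal, choroid plexus and hypothalamic neuron markers were at 0.27, 0.31, 0.24, -0.99 and 0.49, each mean deviation within the range of the others. By summed normalized counts SH F_3 was above the others in hypothalamic neuron markers, with 90370 against 18547 to 71761, and in oligodendrocyte markers, with 238608 against 113473 to 235298. Of the marker genes, 1 of 6 for choroid plexus was at 0 in SH F_3 and all others were above 0. The 7 mitochondrial messenger genes measured had 1.08, within -1.07 to 1.15, while 4 of the 7 and their summed counts were highest in SH F_3. The part of cell makeup, of strain and of RNA quality in the values of SH F_3 was not tested, and in a bulk sample fewer cells of a type and less RNA per cell cannot be told apart.

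The genes most like the members as a whole were named by a rule, as the 5 non-members with a mean of at least 50 whose log2 values correlated best with the mean member deviation after subtraction of group means. Over 19 libraries they were 2510002D24Rik, Slirp, Mif4gd, Gas5 and Tmem208, with Pearson's r from 0.95 to 0.97. Over the 18 libraries without SH F_3 they were 2510002D24Rik, Pcbd2, Sec11c, Slirp and Gas5, with r from 0.90 to 0.93. The points share libraries and their scaling, so these are descriptions.

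Cas9 binding near the members was looked up in 6 deposited peak lists, from hypothalamus and from Neuro2A, a mouse neuroblastoma line, with antibodies to S. pyogenes or S. aureus Cas9. The lists held 92 to 205 peaks. No peak lay on a member or within 5000 bases of one, so 0 of 84 members had a peak in any list. The share of all genes with such a peak is not given here, so the 0 is not read as a trait of the members. Each list had a peak that ended 37 to 50 bases before the annotated start of Sim1 at chr10:50894754 in GRCm38, which places the lists on that build. The nearest peak to a member lay 20994 bases from Rpl12, at chr2:32939956-32940565, with a fold enrichment by the authors of 37.2 in the ETM hypothalamus list. The PTM hypothalamus and the ETM Neuro2A list, all with the S. pyogenes antibody, held it at 42.3 and 43.3. The other 3 lists had no peak within 50000 bases of a member.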

How the data were processed

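RNA of 19 hypothalami and 6 Cas9 peak lists entered the work. Per the file headers, the authors deposited normalized counts (a read signal divided by 1 factor per library), variance-stabilized log2 values, and their own log2 fold changes with p-values for 3 comparisons. Each peak has a fold enrichment (a ratio) and its −log10 q-value, both by the authors, per the file headers. The submitters' processing notes name DESeq2 1.16.1, MACS2 2.1.1.20160309, STAR 2.5.2b and CASAVA 1.8, with no role for any of them, and the build mm9. The coordinates fit GRCm38, where all 84 members overlap their RefSeq gene.

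Whole reads were recovered for at least 99.7% of genes per library, within 0.0505 of a normalized count. Here limma 3.58.1 (trended) was run in R 4.3.3 on log2(normalized count + 1) for the 20505 genes whose mean reached 1, with a term for sex and Benjamini-Hochberg adjustment, and checked on simulated data. Folds of low genes are shrunk by the added 1. Alternatives were edgeR 4.0.16 and DESeq2 1.42.0 on recovered reads, TMM scaling, stabilized values, a pseudocount of 5, other filters, other covariates, a replicate block, and libraries left out. Libraries were taken as separate animals, so p-values measure the spread between them. No 2 libraries were identical. The members and lists were chosen with earlier results of these data known. The mitochondrial ribosomal list was added after the values were seen. Named members are the 4 with the smallest p in each comparison, the 3 by sex, the 3 highest and lowest means, paralogue pairs, X-linked members and the 3 with the largest own SD. Other members, such as Rps3, Rps19 and Rps6, were chosen after their values were seen. Values of 1 member and 1 further gene are not reported here. ChIP libraries without an sgRNA and inputs were not analysed here. Sequences are from RefSeq, GRCm38.p6, first listed start of each gene.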

Additional observations from a re-analysis of the deposited data

Results flagged for a closer look

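In groups of 4 to 6 libraries, a value was singled out when its gap to the nearest other library was large for the range of the group (Dixon's test at its 95% limit). Of 152 groups of values looked at, 15 had such a value, 9 of them in SH F_3. The limit gives about 1 in 20 only for independent groups not chosen by their values. Several of these members were named by their values, and all share the same libraries, so the count cannot be set against that rate. In SH F_3 the share of normalized counts on the members was 1.17%, against 0.459 to 0.526% in the rest of SH. The same library stood apart within SH in Rpl13a (39765 normalized counts), Rpl22 (4848), Rpl22l1 (3466), Rpl4 (28575), Rpl7a (855), Rpl7l1 (2044), Rps25 (261) and Rps27l (672). Libraries of B6/FVB mice accounted for the 6 others.

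ETM M_3 was the highest of ETM in Rpl34 (691 against 41.9 to 50.3), Rpl3 (111 against 39.8 to 46.2) and Rpl10 (94.0 against 32.8 to 42.6). PTM F_3 was the highest of PTM in Rpl30 (199 against 65.9 to 105). PTM M_1 was the highest of PTM in Rpl23 (1883 against 1227 to 1445), and WT F_3 the highest of WT in Rps18 (170 against 18.4 to 53.9).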

How the results depend on the processing

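The count of members past an adjusted p of 0.05 stayed at 0 in all 6 comparisons and for sex under every alternative run, 234 values, and leaving out each library in turn gave 0 as the lowest and the highest count. The spread between replicates of the median member deviation was 0.35 (log2). It includes SH F_3, with which the SD of SH was 0.66 and without which it was 0.15. A shift below 0.35 therefore cannot show that a median did not rest on that library. The median log2 fold change of the members moved by less than 0.35 in 203 of 204 values. The exception was PTM against SH without SH F_3 and the 4 libraries SH F_4, WT F_2, PTM F_5 and PTM M_3, an alternative chosen after seeing the data, where it was 0.23; SH against WT then gave 0.00 and ETM against SH -0.05. Leaving out each library in turn, the medians ran from 0.04 to 0.49 for SH against WT, from -0.44 to 0.04 for PTM against SH, from -0.52 to -0.10 for ETM against SH, from -0.17 to 0.00 for ETM against PTM, from -0.03 to 0.12 for PTM against WT and from -0.15 to -0.03 for ETM against WT. The values nearest to 0 in the SH comparisons were those without SH F_3. Without the 2 B6 mice the median was 0.11 for SH against WT, 0.04 for PTM against SH and -0.10 for ETM against SH. With the stabilized values the medians were 0.20, -0.09 and -0.16 for these 3.

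The labels do not say what a replicate number marks, so same-numbered libraries were not taken as pairs, though several share an age (7, 7, 7 and 6 months for F_1 and 4 months for each F_3). Over 20 such pairs the correlation of deviations ran from -0.27 to 0.58, with 15 over 0.1, and 12 of 18 libraries correlated best with their own number. The 2 B6 mice, WT F_2 and SH F_3, differ in number. Among libraries of other groups each correlated best with the other, at 0.45. With the replicate block in place of sex the count of members called was 0 in each comparison, and the medians were 0.36 for SH against WT, -0.20 for PTM against SH, -0.31 for ETM against SH, -0.09 for ETM against PTM, 0.11 for PTM against WT and 0.02 for ETM against WT, the last turned from -0.09. The share of counts in WT F_2 rose to 0.650% without Gm42418 and mitochondrial genes, by more than the SD of WT. That of SH F_3 rose to 1.30%, by less than the SD of SH, and the 37 values other than that of WT F_2 all moved by less than the SD of their own group. The SD of SH, 0.343, includes SH F_3 itself and was 0.034 without it, so it cannot judge the rise in that library. With 50000 bases on either side 1 peak lay near a member in 3 lists, and the 3 others kept 0. Of 1135 values for single named genes 19 moved by more than the spread between libraries, SH F_3 included. Members with a mean below 10 normalized counts, 7 of 84, rest on few reads, and why their counts were so low was not tested.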
